A study of Caenorhabditis elegans with 15 samples.

Results

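The ule genes of Caenorhabditis elegans (uterine lumen expressed) were followed from the last larval stage to the young adult on 15 arrays. The set is ule-1, ule-2, ule-3, ule-4 and ule-5, and its members were chosen from measured values of these same arrays, so their differences between stages are given as a description without a test. A probe set, the group of short probes that reads one transcript, was counted for a gene when the array annotation named that gene alone. By this rule 4 of the 5 genes were measured, with 6 of the 22548 probe sets other than controls; no probe set used here is annotated to ule-2 alone. ule-3 and ule-5 have a pair of probe sets each, of which one is marked in its name as sharing probes with other transcripts (_s_at or _x_at) and one is not, called the shared and the unique probe set of the gene here. ule-1 has a shared probe set alone and ule-4 a unique one.

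The ule genes are known for secreted proteins found in the lumen of the uterus, the chamber that receives fertilised eggs and holds them until they are laid. In ageing hermaphrodites that have used up their own sperm, such proteins are known to build up in the uterus. The uterus takes its shape in the L4 larva, and the animal then passes through lethargus, the sleep-like quiet period of the moult, before it becomes a fertile adult.

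All samples were wild-type N2 hermaphrodites, with no mutant allele, transgene or drug, grown at 20 °C and collected at 22.5 °C in batches of 20 animals. L4 larvae were taken 42 hours after feeding. Animals in L4-lethargus were taken at 45 to 50 hours, when pharyngeal pumping had been stopped for 30 to 40 minutes. The Adult group held young adults, whose age in hours is not stated in the labels used here. Each stage had 5 arrays, each hybridised with amplified RNA of whole animals. In whole animals, fewer cells of a type and less RNA per cell cannot be told apart. The labels do not say that batches came from separate cultures, so the SDs and p-values measure only the spread between these samples. RNA yields per batch differed by stage, 22.3 ± 7.0 ng for L4, 18.6 ± 3.5 ng for L4-lethargus and 75.3 ± 10.3 ng for Adult as stated in the labels, and the part of yield in the results was not tested.

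Arrays of the same stage correlated with r between 0.983 and 0.997 over all probe sets. The array medians lay between 7.41 and 7.53 log2 units in L4, 7.49 and 7.54 in L4-lethargus and 7.22 and 7.31 in Adult. L4-lethargus replicate 1 stood apart from its stage: across the 22542 other probe sets projected onto the line between the stage means, it had covered 28.5% of the way from L4 to Adult, against 42.7% to 53.1% in the other 4 arrays. Values below 5.56 log2 units, the 95th percentile of 32 control probe sets for other organisms, are called background here. Where a stage mean lay below that value, the fold is written as "at least", with the background value in place of the mean. Array values are log2 intensities of single probe sets, so levels of different genes are not compared.

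The uterus was checked through genes that mark it and the vulva. The SOX factor gene egl-13, needed for uterine cell fates, had a mean of 8.90 in L4, 7.60 in L4-lethargus and 7.46 in Adult, and the LIM homeobox gene lin-11 had 7.88, 7.76 and 7.71. The homeobox gene cog-1 had 8.50, 8.43 and 6.99. The remaining markers of that list, egl-43 and nhr-67, were below background in every stage mean, at up to 4.81 and 5.38.

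ule-5 was at background in the larva and far above it in both later stages on both of its probe sets. On the shared set, 173316_s_at, the 5 L4 arrays read 4.04, 4.59, 4.23, 4.03 and 3.99, all below background. In L4-lethargus they read 9.21, 10.65, 10.20, 11.13 and 11.11, and in Adult 12.79, 12.61, 12.56, 12.66 and 12.65. The 3 stages did not overlap, and every lethargus array lay between the larval and the adult arrays. The mean was 4.18 ± 0.25 (SD, n = 5) in L4, 10.46 ± 0.80 in L4-lethargus and 12.65 ± 0.09 in Adult. The signal in L4-lethargus was therefore at least 29.8-fold above L4 and 4.57-fold below Adult, and Adult was at least 136-fold above L4.

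The unique set of ule-5, 180534_at, gave L4 values of 3.90, 3.63, 4.51, 4.12 and 4.06, again all background. Its lethargus values were 8.95, 10.48, 9.91, 10.62 and 10.64, and its Adult values 12.47, 12.47, 12.42, 12.46 and 12.43. L4-lethargus was at least 23.5-fold above L4 and 5.03-fold below Adult. Both ule-5 probe sets had replicate 1 as the lowest lethargus array and replicate 3 as the next lowest. Over the 15 arrays the root-mean-square difference between their profiles, each centred on its own mean, was 0.28 log2 units.

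ule-3 was read by a pair of probe sets that went opposite ways. On the unique set, 181522_at, the L4 arrays read 4.69, 4.90, 5.36, 4.42 and 4.97, all below background. The lethargus arrays read 10.42, 11.53, 11.21, 11.67 and 11.42, and the Adult arrays 12.74, 12.75, 12.59, 12.57 and 12.70. No 2 stages overlapped. The mean was 4.87 ± 0.35 in L4, 11.25 ± 0.49 in L4-lethargus and 12.67 ± 0.08 in Adult. L4-lethargus was at least 51.6-fold above L4 and 2.67-fold below Adult.

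The shared set of ule-3, 171904_x_at, read 12.39, 12.32, 11.51, 11.60 and 11.26 in L4, then 11.59, 11.36, 11.36, 11.64 and 10.99 in L4-lethargus, and 10.06, 11.09, 10.84, 10.66 and 10.06 in Adult. L4 and L4-lethargus overlapped, L4-lethargus and Adult overlapped by 0.10, and Adult lay below L4 with a gap of 0.17. The Adult mean of 10.54 ± 0.46 was 2.41-fold below the L4 mean of 11.81 ± 0.51. By the rule that the probe set with the highest mean stands for a gene, the shared set (mean 11.25) stands for ule-3 over the unique set (mean 9.60), so the direction given for ule-3 depends on which probe set is read. Which of them reads ule-3 messenger RNA was not tested.

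ule-4, on its unique set 184864_at, was well above background on every larval array. The L4 arrays read 9.23, 8.50, 10.64, 10.08 and 9.17, the lethargus arrays 12.06, 12.16, 12.06, 12.08 and 12.08, and the Adult arrays 12.35, 12.62, 12.42, 12.43 and 12.46. The stages did not overlap, and L4 spread over far more of the scale than the other stages. The mean was 9.53 ± 0.84 in L4, 12.08 ± 0.04 in L4-lethargus and 12.46 ± 0.10 in Adult. L4-lethargus was 5.89-fold above L4 and 1.29-fold below Adult. That last difference of -0.37 log2 units was -0.63 with each array centred on its median, -0.65 after scaling to the hybridisation controls and -0.25 after cyclic loess.

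ule-1, on its shared set 184416_s_at, was near background in the larva and reached a high level in Adult, with lethargus arrays that differed widely among themselves. Its L4 arrays read 5.59, 5.60, 5.49, 5.32 and 5.70, around the background value. The lethargus arrays read 5.66, 7.82, 5.92, 7.33 and 7.80, and the Adult arrays 11.82, 11.81, 11.87, 12.19 and 11.88. In lethargus, replicates 1 and 3 were near the larval values and the other 3 arrays were well above them. L4 and L4-lethargus overlapped by 0.04, while Adult lay above both. The mean was 5.54 ± 0.14 in L4, 6.90 ± 1.04 in L4-lethargus and 11.92 ± 0.16 in Adult. Adult was 32.2-fold above L4-lethargus and at least 81.7-fold above L4. The log2 difference between L4-lethargus and L4 was 1.37, and it ranged from 1.14 without lethargus replicate 2 to 1.68 without lethargus replicate 1.

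**Figure D1:**
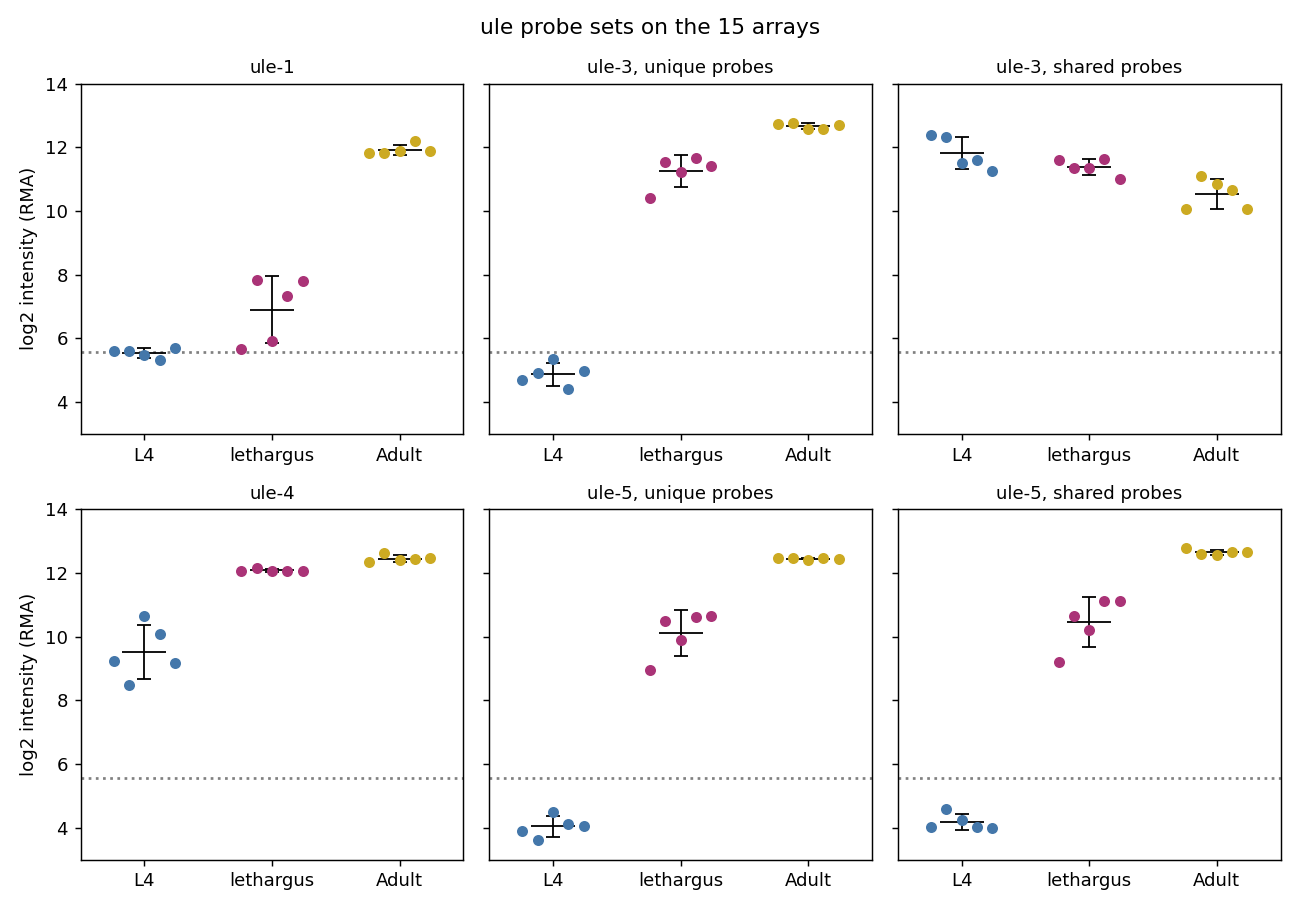
Log2 signal of the 6 ule probe sets on each of the 15 arrays, by stage; points are arrays, bars are stage means with SD, and the dotted line is the background value of 5.56. Adult lies above both other stages for 5 of the probe sets and below L4 for the shared set of ule-3. Of all probe sets, 25% had every Adult array above every L4 array and 23.5% had every one below.

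Across the 6 probe sets, 5 met the call threshold as higher in L4-lethargus than in L4 and 0 as lower, where 15.6% of all probe sets were called higher and 15.3% lower. Against Adult, 1 was called higher in L4-lethargus and 4 lower, where 25.3% of all probe sets were called higher and 31.7% lower. Between Adult and L4, 5 were called higher in Adult and 1 lower, where 31.4% and 28% of all probe sets were. All L4-lethargus arrays lay above all L4 arrays for 4 of the 6 and below for 0, where 12.4% and 14.2% of all probe sets did. For L4-lethargus against Adult the counts were 0 above and 5 below, with 21.8% and 26.7% of all probe sets. For Adult against L4 they were 5 and 1, with 25% and 23.5%. Nothing is read from these counts, because the members were picked with these values in view. The 6 probe sets are annotated to 4 genes, so they do not stand for 6 separate genes. The pair for ule-3 went opposite ways, and which of them reads its transcript was not tested.

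The members differed in how far lethargus had come from the larval to the adult level. On the log2 scale, ule-4 had covered 87.3 ± 1.45% of that way over the 5 lethargus arrays, and the unique set of ule-3 had covered 81.8 ± 6.33%. ule-5 had covered 74.1 ± 9.42% on its shared set and 72.3 ± 8.54% on its unique set. ule-1 had covered 21.4 ± 16.3%. The values for ule-1 were 1.85%, 35.8%, 6.02%, 28% and 35.4% for replicates 1 to 5, and the lowest array of ule-1 was also the lowest for the unique set of ule-3 and for both sets of ule-5. For ule-1, ule-5 and the unique set of ule-3, the L4 mean lay below background. The shares use that mean itself and not the background value, so they depend on a larval end that is poorly measured.

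For comparison, the yolk protein genes, which encode vitellogenins made in the adult intestine, had covered 30 ± 4.39% (vit-1), 97.1 ± 1.06% (vit-2), 83.4 ± 1.79% (vit-4), 82.8 ± 2.33% (vit-5) and 95.4 ± 2.1% (vit-6). The probe sets of vit-4 and vit-5 are marked as sharing probes with other transcripts, so these genes may not be separate readings. ule-1 and vit-1 were the lowest of those named, and the range of ule-1 over arrays included the mean of vit-1.

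**Figure D2:**
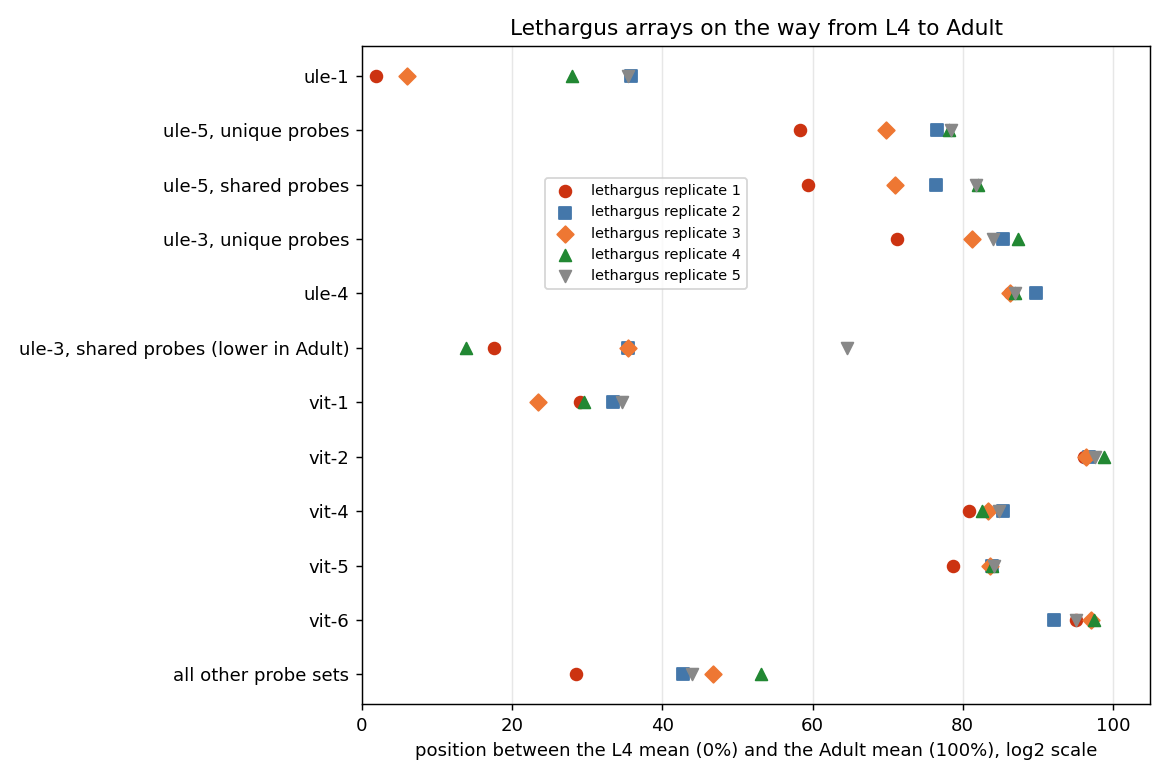
Position of each L4-lethargus array between the L4 mean (0%) and the Adult mean (100%) on the log2 scale, for the ule probe sets the vitellogenin genes and all other probe sets together, projected onto the line from the L4 to the Adult means; each point is an array, and for the shared set of ule-3 the Adult end is the lower one. ule-4 sits at 86.3% to 89.8% and ule-1 at 1.85% to 35.8%.

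The spread between lethargus arrays also differed between the members. Ranked by SD within lethargus among all probe sets, ule-1 stood at percentile 99.3, the ule-5 probe sets at 98.7 and 98.4, and the unique set of ule-3 at 96.5. The shared set of ule-3 stood at percentile 83.9 and ule-4 at percentile 2.2. L4-lethargus replicate 1 lagged over all probe sets, and its part in this spread was not tested.

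Likeness between profiles was measured as the root-mean-square difference over the 15 arrays after each was centred on its own mean, and it is a description. Among the members, the unique set of ule-3 differed from either ule-5 probe set by 0.44 log2 units. ule-1 differed from the other members by 1.96 to 2.15, apart from the shared set of ule-3, where the difference was 3.34. ule-4 differed from the others by 1.89 to 2.40.

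Among 17114 other named genes, the closest profiles to the shared set of ule-5 were ZK813.1 (0.21), stha-3 (0.27) and Y57G11B.5 (0.48). The same 3 genes were closest to its unique set, with stha-3 at 0.24, ZK813.1 at 0.38 and Y57G11B.5 at 0.40. ZK813.1 had means of 4.58 in L4, 10.80 in L4-lethargus and 13.23 in Adult on a probe set marked as sharing probes. Its other probe set gave lower means in the later stages, with 4.50, 7.69 and 11.40. For the unique set of ule-3, stha-3 (0.27), Y57G11B.5 (0.30) and F17E9.4 (0.58) were closest, a list added after the values were seen because the fixed rule takes the shared set for this gene. Thus stha-3 and Y57G11B.5 appeared beside both ule-3 and ule-5. For the shared set of ule-3 the closest were C32H11.4 (0.29), lact-4 (0.31) and T01B6.1 (0.31).

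The genes closest to ule-4 included the chondroitin proteoglycan genes cpg-1 and cpg-2, whose products are parts of the eggshell. The difference was 0.30 for best-20, a member of the bestrophin family of chloride channels, 0.32 for cpg-1 and 0.33 for cpg-2. In L4, replicates 3 and 4 were the highest arrays for ule-4 (10.64 and 10.08), for cpg-1 (10.71 and 10.13) and for cpg-2 (10.97 and 10.41). They were also the highest for best-20 (6.30 and 5.74), whose L4 mean of 5.51 lay below background. These genes were chosen for likeness over the same arrays, so the shared order is no separate evidence of likeness. The means of cpg-1 were 9.86 in L4, 11.89 in L4-lethargus and 12.51 in Adult, and those of cpg-2 were 10.11, 12.11 and 12.80.

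ule-1 had other company. Its closest profiles were skr-7 (0.39), a gene of the Skp1-related family that acts in protein breakdown, C10G8.4 (0.44) and the cuticle collagen gene col-143 (0.46). The lethargus values of skr-7 were 3.45, 5.23, 3.81, 4.39 and 5.26, with replicates 1 and 3 lowest as for ule-1, though all of them lie below background. As skr-7 was chosen for likeness over these arrays, that order is no separate evidence either. The means of col-143 were 7.22 in L4, 7.96 in L4-lethargus and 12.71 in Adult.

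**Figure D3:**
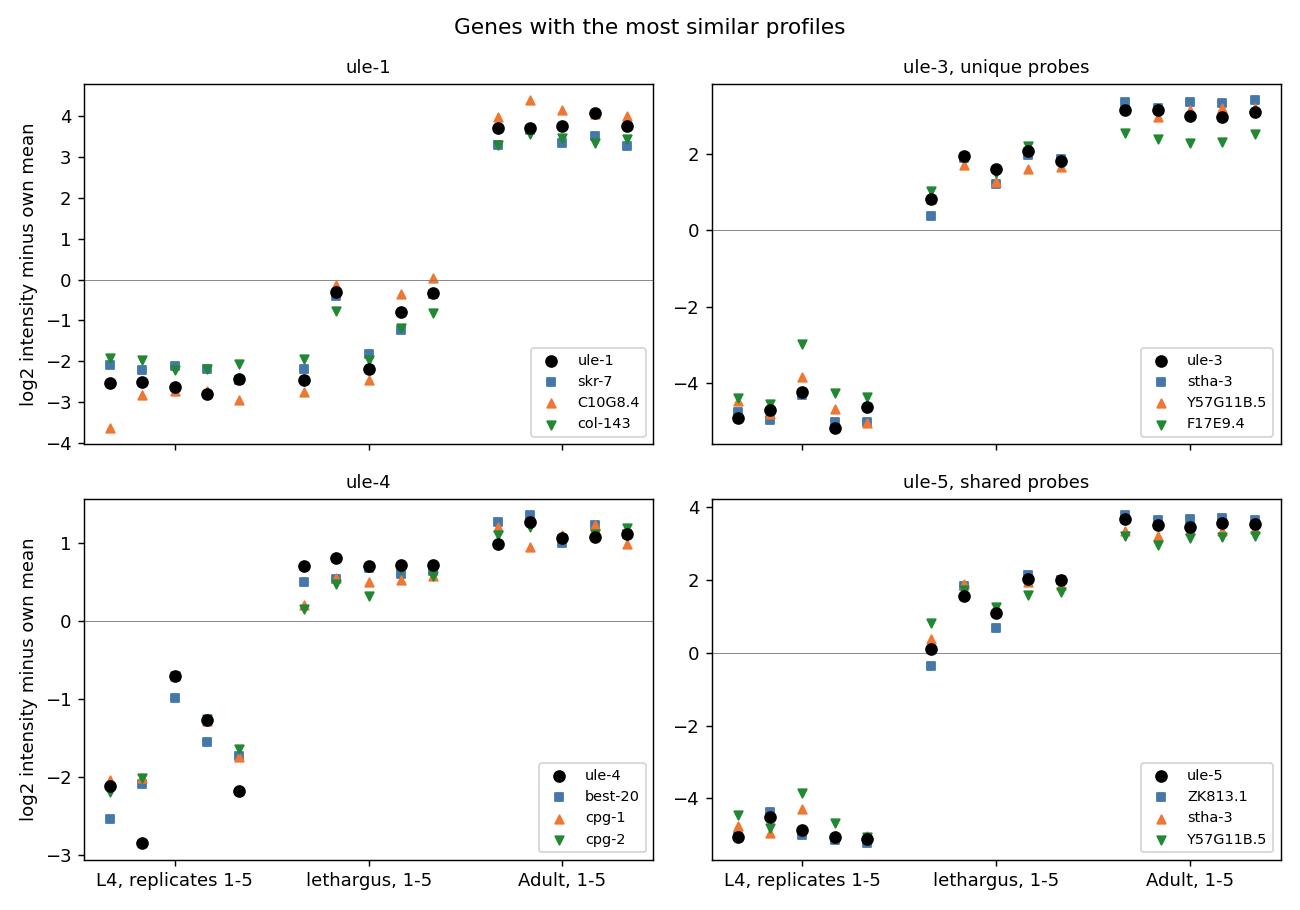
Centred log2 profiles of ule probe sets and of the named genes closest to them over the 15 arrays; the vertical axis is the log2 signal minus the mean of the profile. ule-3 (unique set) and ule-5 (shared set) have stha-3 and Y57G11B.5 in common among their closest genes. The closest to ule-4 were best-20, cpg-1 and cpg-2, and the closest to ule-1 were skr-7, C10G8.4 and col-143.

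The genes next to the members on the chromosome were not used to choose them, and were tested in the limma fit across all probe sets with Benjamini-Hochberg adjustment. For each member the 2 nearest measured protein-coding genes on each side were taken from the RefSeq gene order, 20 genes in all. From L4 to L4-lethargus, 5 rose, 2 fell and 13 did not pass the test, where 15.6% of all probe sets rose and 15.3% fell. From L4 to Adult, 5 rose, 6 fell and 9 did not pass, where 31.4% of all probe sets rose and 28% fell. Against Adult, 5 were higher in L4-lethargus, 4 lower and 11 did not pass, where 25.3% of all probe sets were higher and 31.7% lower. Of those higher, dct-9 by ule-1, irld-4 by ule-2 and C08F11.10 by ule-4 did not pass with median-centring or scaling to the hybridisation controls. Leaving out single arrays also removed irld-4 (Adult replicate 4) and C08F11.10 (several arrays). From L4 to Adult, C08F11.10 did not pass with either scaling, and irld-4 did not with the controls. In each comparison, 6 of the 20 had means below background in both stages.

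D1054.10, the gene beside ule-3, read 6.49, 6.68, 7.18, 7.04 and 7.10 in L4. It read 10.74, 11.73, 11.55, 12.07 and 11.80 in L4-lethargus and 13.04, 13.07, 12.98, 13.12 and 13.08 in Adult. The 3 stages did not overlap, and its course resembled that of the unique set of ule-3. It rose 25.7-fold from L4 to L4-lethargus (limma adjusted p = 2.87e-11) and 71.5-fold from L4 to Adult (limma adjusted p = 5.56e-13). D1054.9, on the far side of D1054.10 from ule-3, went the other way and fell by 1.40 log2 units from L4 to L4-lethargus (limma adjusted p = 0.00363). The probe sets of D1054.10 and D1054.9 are both marked as sharing probes with other transcripts.

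stha-3, beside ule-5, had a mean of 4.72 in L4 and of 12.87 in Adult, and read 9.92, 11.43, 10.75, 11.49 and 11.40 in L4-lethargus. Replicate 1 was again the lowest lethargus array. It rose at least 43.3-fold from L4 to L4-lethargus (limma adjusted p = 1.11e-11) and was 3.66-fold below Adult there (limma adjusted p = 9.07e-06). Its probes are marked as shared with other transcripts, and its other probe set gave means of 4.40, 8.81 and 11.74.

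Y62H9A.4, the next gene beyond stha-3, read 7.94, 10.13, 9.12, 10.24 and 10.08 in L4-lethargus. It rose at least 15.3-fold from L4 (limma adjusted p = 8.88e-09) and was a further 6.12-fold higher in Adult (limma adjusted p = 1e-05). Y62H9A.3, one gene beyond that and named after its values were seen, had means of 4.67, 9.12 and 12.02. The difference of its means from L4 to L4-lethargus was 4.45 log2 units (limma adjusted p = 4.02e-08), taken from an L4 mean below background. Its probe set is marked as sharing probes with other transcripts. Y62H9A.1 and Y62H9A.2 had means of at most 3.43 and 4.35, below background. The other measured genes with names in Y62H9A did not pass as higher in Adult than in L4. On the opposite side of ule-5, Y62H9A.7 and Y62H9A.8 had means between 5.03 and 5.47, all below background.

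Near ule-4, Y45F10C.4 rose 37.4-fold from L4 to L4-lethargus (limma adjusted p = 2.76e-07). It lies 7 genes from ule-4, beyond the nearer neighbour C08F11.10, whose means were 9.76, 9.70 and 9.22. Its L4 arrays read 5.89, 4.83, 8.26, 5.89 and 4.68, its lethargus arrays 10.89, 11.14, 11.19, 11.25 and 11.20, and its Adult arrays 11.29, 11.41, 11.25, 11.15 and 11.22. L4-lethargus and Adult overlapped, and their difference of -0.13 log2 units did not pass the test. As with ule-4, replicate 3 was the highest larval array.

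Beside ule-1, W03F11.5 fell 5.10-fold from L4 to L4-lethargus (limma adjusted p = 3.21e-07), with means of 8.59, 6.24 and 6.11. Its reference span overlaps that of ule-1 at the edge. gcy-17, a receptor guanylyl cyclase gene on the other side of ule-1, was below background. ule-2 itself was not read, and of its measured neighbours dmd-6, a gene of the doublesex and mab-3 family, rose by 0.76 log2 units from L4 to L4-lethargus (limma adjusted p = 1.87e-05). Y57G11B.5, close in profile to ule-3 and ule-5, lies 5 protein-coding genes from ule-2.

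**Figure D4:**
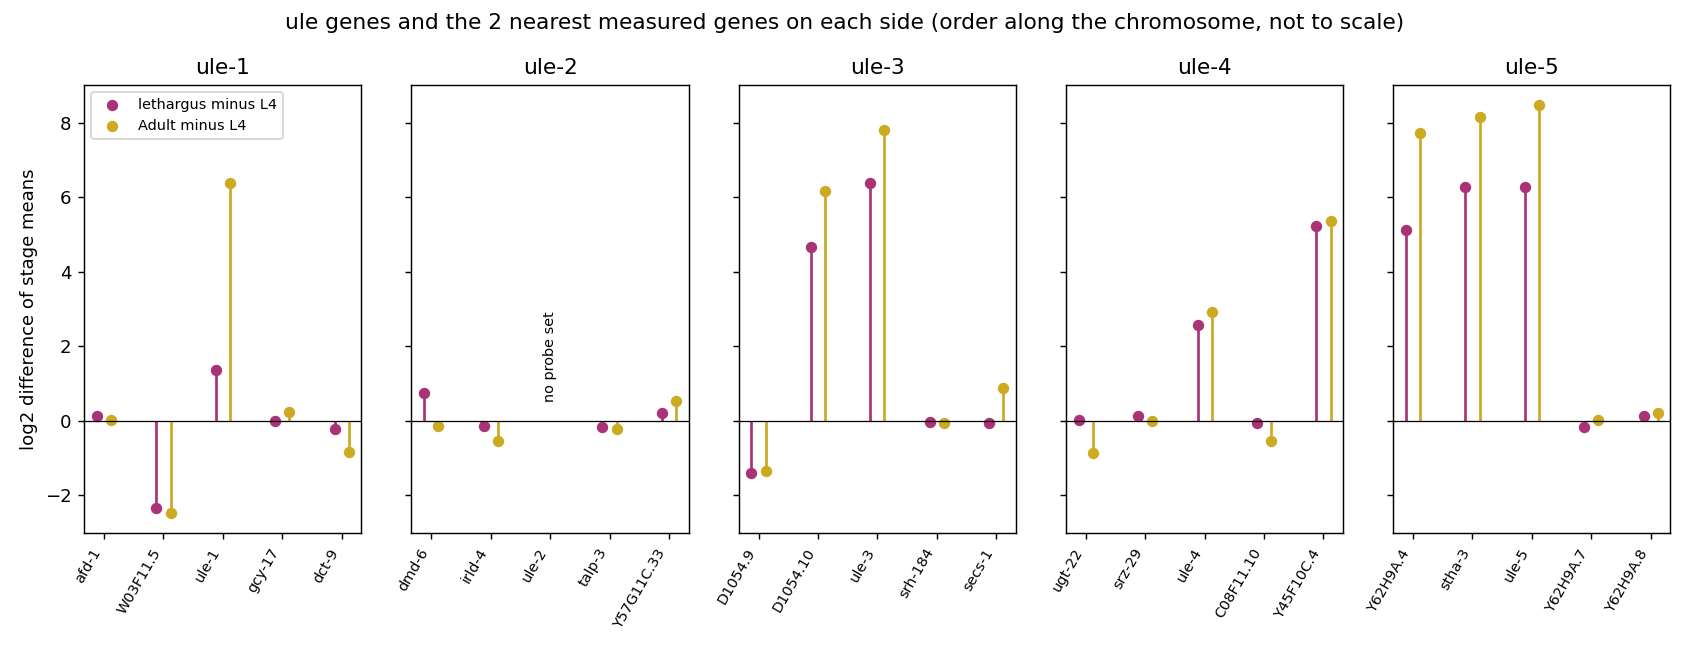
Log2 difference from L4 for the measured protein-coding genes nearest to each ule gene, in L4-lethargus and in Adult, with the member between them (the unique set for ule-3, the shared set for ule-5). The plotted differences of stage means were above 4 log2 units in both for D1054.10 by ule-3, stha-3 and Y62H9A.4 by ule-5, and Y45F10C.4 by ule-4. For stha-3 and Y62H9A.4 the L4 mean lay below background. Their rises from L4 to L4-lethargus are therefore known only as at least 43.3-fold and at least 15.3-fold. W03F11.5 and D1054.9 fell, and the other neighbours changed by less than 1 log2 unit. Among those that rose so far, D1054.10 and stha-3 are read by probe sets marked as sharing probes.

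Lists of genes of the uterus and vulva, of lumen matrix and of egg production gave the setting of the ule genes. The lists hold 119 genes, of which 114 were measured, and were chosen with earlier results of these data known. Counts are at a limma adjusted p of 0.05, and over all 17118 named genes 2733 rose and 2673 fell from L4 to L4-lethargus, with a median difference of 0.00 log2 units, while 5274 rose and 4912 fell from L4 to Adult, with a median of 0.08.

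Of the eggshell and oocyte genes, 13 of 13 rose from L4 to L4-lethargus (median 1.92 log2 units) and 13 of 13 from L4 to Adult (median 3.32). Among them perm-2, which builds the permeability barrier of the eggshell, rose 11.9-fold by L4-lethargus. Of 5 yolk genes, 5 rose by L4-lethargus (median 3.34), and vit-5 rose 39.6-fold. The probe sets of perm-2 and vit-5 are marked as sharing probes with other transcripts. With such probe sets left out, the 5 yolk genes that rose became 3. The summed level of the eggshell list, as a mean of log2 values, was 8.55 to 9.78 on the L4 arrays, 10.76 to 11.29 in L4-lethargus and 12.13 to 12.22 in Adult; its part in the ule values was not tested. Of the lumen matrix genes, 9 of 11 were lower and 1 higher in L4-lethargus than in L4 (median -3.81). The 1 became 2 without L4-lethargus replicate 1. Among them lpr-3, a lipocalin gene of the apical matrix, fell 86.7-fold. That list is not restricted to the uterus, and the tissue of these changes in whole animals was not tested.

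Genes of chondroitin synthesis, which makes the sugar chains that swell the vulval and uterine lumen, included 1 that rose and 2 that fell of 9 by L4-lethargus (median 0.00), while 9 of 9 rose from L4 to Adult (median 0.73). By L4-lethargus the 1 that rose became 3 without L4-lethargus replicate 1 or after cyclic loess, and 2 without L4 replicate 1, and the 2 that fell became 0 after scaling to the hybridisation controls. Of 18 regulators of uterine and vulval fate, 4 rose and 2 fell by L4-lethargus (median 0.06), and egl-13 fell by 1.30 log2 units (limma adjusted p = 7.09e-05). Of 11 genes of the anchor cell and uterine seam, 2 rose and 3 fell (median -0.25), and of 17 spermatheca and gonadal sheath genes 4 rose and 1 fell (median 0.11). In the latter list tbh-1, which makes octopamine in the gonadal sheath and in neurons, rose at least 6.78-fold by L4-lethargus. The tbh-1 probe set is marked as sharing probes. Of 16 genes of the egg-laying circuit 4 rose and 0 fell in the limma fit (median 0.11), and cat-4, which acts in the synthesis of serotonin and dopamine, rose 1.68-fold. The 4 became 2 without L4 replicate 4, L4-lethargus replicate 4 or L4-lethargus replicate 5, and the 0 became 1 with median-centring and without L4-lethargus replicate 1 or 4 or Adult replicate 1 or 2.

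Young embryos in the uterus could carry RNA of their own. Of 14 genes first transcribed in embryos, 1 rose and 0 fell by L4-lethargus (median 0.06), and 6 rose and 1 fell from L4 to Adult (median 0.25). The 6 became 10 with median-centring and 11 after scaling to the hybridisation controls, and 0 with dim probe sets left out; the 1 became 2 without L4 replicate 1 or 2. The gene that rose by L4-lethargus was elt-7, with a mean of 8.76 in L4 and 9.49 in L4-lethargus. The gene that fell from L4 to Adult was hlh-1, with 8.02 and 7.40. Both were thus well above background in L4 larvae already. In Adult, 9 of the 14 were below background, among them end-1, med-1, tbx-35 and tbx-37, and pes-10 had a mean of 3.66. vet-2 had 8.02 ± 0.59 in Adult, at least 5.50-fold above either other stage. The part of embryo RNA in the Adult ule values was not tested.

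For the remaining comparisons the lists are given by their counts. From L4 to Adult, 6 fate regulators rose and 7 fell (median -0.03), 4 anchor cell and uterine seam genes rose and 6 fell (median -0.58), 5 spermatheca and sheath genes rose and 7 fell (median -0.07), 5 egg-laying genes rose and 5 fell (median 0.12), 5 yolk genes rose (median 3.43), and 1 lumen matrix gene rose and 10 fell (median -4.82). Set against Adult, L4-lethargus had 12 of 13 eggshell genes lower (median -1.18), 8 of 9 chondroitin genes lower (median -0.83) and 2 of 5 yolk genes lower (median -1.03), with 0 higher in each of these lists. Lower and higher numbered 5 and 5 for fate regulators (median -0.05), 2 and 3 for lumen matrix (median 0.63), 4 and 5 for anchor cell and seam (median 0.05), 5 and 7 for spermatheca and sheath (median 0.09), 3 and 6 for egg-laying (median 0.05) and 4 and 2 for embryo genes (median -0.18). Over all named genes 5314 were lower and 4492 higher, with a median of -0.08. Without single arrays, the 3 lumen matrix genes higher than in Adult became 5 (without L4 replicate 1 or 3), the 2 yolk genes lower became 1 (without L4-lethargus replicate 1 or Adult replicate 3 or 4), and the 5 egg-laying genes that fell from L4 to Adult became 3 (without Adult replicate 5).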

How the data were processed

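Amplified whole-animal RNA was read on Affymetrix arrays for C. elegans, 5 a stage. The deposited values are log2 signals made by the authors with RMA, per the submitters' processing notes; RMA compresses differences of dim probe sets. No further normalization was applied. Of 22625 probe sets, 77 controls were left out, 20766 had 1 annotated gene, 887 several and 895 none. RefSeq gene IDs matched 20701 of them. limma 3.58.1 in R 4.3.3 fitted 3 stage means over 15 arrays. As the series design states, p-values were multiplied by 2, then adjusted (Benjamini-Hochberg) over 22548 probe sets and called at 0.05; the permutation p-values the design names were not run. The fit was tested on simulated data.

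The members and lists were chosen with earlier results of these data known. Named were all members, the 3 largest called differences per list and comparison, from which examples are given, the 2 nearest measured genes a side, and the 3 closest profiles. Alternatives were other scalings, filters, probe-set rules, a replicate block and leaving out each array. The number of arrays limits the precision. Figures used Python 3.11.15 and matplotlib 3.10.9.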

Additional observations from a re-analysis of the deposited data

Results flagged for a closer look

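Of the 18 groups of 5 arrays tested for a value far from the others, 2 had one, and chance gives about 1 in 20. The Adult value of ule-1 in replicate 4 was 12.19, with the nearest array at 11.88, a gap of 0.822 of the range. The L4-lethargus value of ule-4 in replicate 2 was 12.16, with the nearest at 12.08, a gap of 0.796 of a very narrow range.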

How the results depend on the processing

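Asking for a log2 difference of at least 1 lowered the probe sets called from 6966, 12862 and 13390 to 2338, 4324 and 5391 (L4-lethargus against L4, L4-lethargus against Adult, Adult against L4), and the list genes called from 52, 73 and 90 to 31, 37 and 53. Leaving out each array in turn gave 6103 to 7962, 12004 to 13318 and 12463 to 13659 probe sets. With ule-3 read without shared probe sets, its differences turned from -0.42, 0.85 and -1.27 to 6.39, -1.42 and 7.80, and with the mean of its probe sets to 2.98, -0.28 and 3.27. The scalings moved ule-4 in L4-lethargus against Adult to -0.63 (median-centring), -0.25 (cyclic loess) and -0.65 (hybridisation controls), and its share to 80.1%, 91.1% and 80.2%. Adult against L4 became 6.59 (median-centring) and 6.72 (controls) for ule-1, 8.15 (controls) for the unique set of ule-3, 8.68 and 8.82 for the shared set of ule-5 and 8.75 (controls) for its unique set. The median of all probe sets for that comparison was 0.08 as deposited, 0.29 with median-centring and 0.43 with controls, and the share of calls that were higher was 52.9%, 69.7% and 76.7%; for L4-lethargus against Adult that share was 44.4%, 25% and 23.6%. With median-centring or controls, list genes lower in L4-lethargus than in Adult went from 2 to 5 (yolk), 5 to 9 (fate regulators), 4 to 9 (embryo) and 3 to 7 or 5 (egg-laying), egg-laying genes higher there went from 6 to 2, and genes that fell from L4 to Adult went from 7 to 4 or 2 (spermatheca and sheath) and 5 to 2 (egg-laying). Without shared probe sets, chondroitin genes higher in Adult than in L4 went from 9 to 5 and yolk genes from 5 to 3, as fewer genes were measured. Same-numbered arrays deviated with correlations of -0.24 to 0.13, so no strong effect shared by same-numbered arrays was seen. These values cannot show whether such samples were collected together. A replicate block gave 6438, 12469 and 12941 probe sets. The causes were not tested. Signals below 5.56 bound the folds of ule-1, ule-3 and ule-5 in L4.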
